A study of Rattus norvegicus with 8 samples.

Results

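Calcium-binding proteins are among the classical markers of thalamic neuron classes, and the transcripts of 7 of them, Calb1, Calb2, Pvalb, Hpca, Hpcal1, Vsnl1 and Ncald, were followed in the medial thalamus of 8 rats. They were taken as every probe outside the control spots to which the array design gives one of these gene names. This gave 12 of the 41012 probes and 21 of the 43379 spots on each array. All 7 genes were among the 26981 tested after a filter on dim probes, which all 12 probes passed.

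The animals were male Sprague-Dawley rats of 277 g under urethane, each fitted with an inflatable tracheal cuff. In the 4 occlusion animals the cuff blocked 2 to 4 breaths at a time, with 15 or more free breaths in between, for 10 min, and the brain was taken straight afterwards. In the 4 surgical control animals the cuff stayed deflated and the brain was taken 70 min after setup. Neither age nor, for the occlusion animals, the interval between setup and removal is stated in these sources, so occlusion and time under anaesthesia cannot be told apart. RNA of each animal was hybridised in Cy5 on its own oligonucleotide array against a Cy3 pool of all 8 animals, so each value below is a log2 ratio of 1 animal over a pool that contained it. Each replicate is a separate animal, and the dyes were not swapped.

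The members belong to the EF-hand family, in which a helix-loop-helix fold binds calcium. Calbindin, calretinin and parvalbumin (Calb1, Calb2 and Pvalb) are buffers that shape the calcium signal of the neurons that hold them. Hippocalcin, Hpcal1, visinin-like 1 (Vsnl1) and neurocalcin delta (Ncald) are neuronal calcium sensors, which expose a lipid anchor on binding calcium and move to membranes. In the rodent thalamus calbindin marks relay neurons with diffuse cortical projections, calretinin marks midline nuclei, and parvalbumin marks the inhibitory neurons of the reticular nucleus, while hippocalcin is best known from hippocampal and cortical pyramidal cells.

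Start regions from RefSeq on GRCr8, covering 250 bases before and 50 bases after the start of the gene, were found for 4 of the 7 members. The start regions of Pvalb and Hpca are shown because these genes had the widest spread over all 8 animals below. For Hpca this rests on control 3, without which its SD was 0.302, against 0.305 for Hpcal1. Pvalb lies at chr7:111666240-111666539 on the minus strand and Hpca at chr5:146748309-146748608 on the minus strand. Capitals mark the GC box GGGCGG and the cAMP response element core TGACG, read on both strands, so that CCGCCC and CGTCA are their reverse forms.
Pvalb: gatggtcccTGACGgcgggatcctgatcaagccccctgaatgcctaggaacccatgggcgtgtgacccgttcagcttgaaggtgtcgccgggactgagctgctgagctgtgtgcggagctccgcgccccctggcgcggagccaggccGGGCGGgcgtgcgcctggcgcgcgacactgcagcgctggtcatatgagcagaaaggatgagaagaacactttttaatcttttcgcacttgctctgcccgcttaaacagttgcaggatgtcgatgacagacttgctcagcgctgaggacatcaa
Hpca: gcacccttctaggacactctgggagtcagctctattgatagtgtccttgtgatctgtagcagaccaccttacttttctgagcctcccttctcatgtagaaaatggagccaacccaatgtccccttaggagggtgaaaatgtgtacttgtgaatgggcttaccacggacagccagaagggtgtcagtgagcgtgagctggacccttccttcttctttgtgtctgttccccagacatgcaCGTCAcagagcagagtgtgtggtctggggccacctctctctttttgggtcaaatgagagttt
The Pvalb region held 1 GC box and 1 core, and the Hpca region held 0 GC boxes and 1 core. Hpcal1 (chr6:46206644-46206943, plus strand) held 3 GC boxes and 0 cores, and Vsnl1 (chr6:39878507-39878806, minus strand) held 1 GC box and 0 cores. Of all 33469 such regions in the table, 33.1% held the GC box and 21.2% the core. The TATA box TATAAA occurred in 0 of the 4 and in 14.2% of all regions. The GC content was 60.7% for Pvalb, 50.7% for Hpca, 69.0% for Hpcal1 and 61.3% for Vsnl1, beside a median of 51.7% over all regions.

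Slide 1 carried occlusion 1 and 2 with control 3 and 4, and slide 2 carried the other 4 animals. Over the arrays the median ratio of Cy5 signal to background was 3.65 to 4.67, and 68.3% to 80.2% of spots were well above background. The labelled tissue was checked against 12 thalamic relay neuron markers, of which 9 were tested and 8 were well above background on all 8 arrays. In 1 library these markers stood apart. In the library labelled control 3 their mean log2 ratio was -1.81, where the other animals lay between -0.38 and 0.19, and the mean of 11 cortex projection neuron markers was 1.33, where the others lay between -0.69 and -0.23. The thalamic glutamate transporter gene Slc17a6 was at -2.99 and the relay marker Prkcd at -3.01 in control 3, and the cortical genes Neurod2 and Nrgn were at 2.60 and 1.66. Differences between the groups below are therefore given with and without control 3, except within slide 1, where 1 control would remain. In such dissected tissue, fewer cells of a type and less RNA per cell cannot be told apart.

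Occlusion was compared with control to ask whether transcripts of these proteins differ after brief repeated loss of airflow. No member differed beyond the spread between animals. In limma 0 of 7 members passed a Benjamini-Hochberg adjusted p under 0.05, beside 0 of 26981 genes (0%), and 0 of 7 had an unadjusted p under 0.05, beside 842 genes (3.12%). The occlusion mean was higher for 3 members (Calb1, Calb2 and Hpcal1) and lower for 4 (Pvalb, Hpca, Vsnl1 and Ncald), beside 50.2% of all genes with a higher mean, and Pvalb turned to the other sign after median centring. The median log2 difference was -0.0069 over the members and 0.00076 over all genes. Without control 3 the occlusion mean was higher for 6 of 7 members, all but Calb1, beside 49.7% of all genes, and the median over the members was 0.11. The split of signs thus depends on that animal, and also on the probe, since the brightest probe stands for each gene. Without control 3 the second probes of Vsnl1 and Ncald differed by -0.04 and -0.09, and the other Calb1 probes by -0.22, 0.10 and 0.06. Occlusion and control values overlapped for all 7, and 2.54% of all genes had groups that did not overlap. With 4 animals against 4, an exact permutation test cannot go below a two-sided p of 0.0286.

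**Figure D1:**
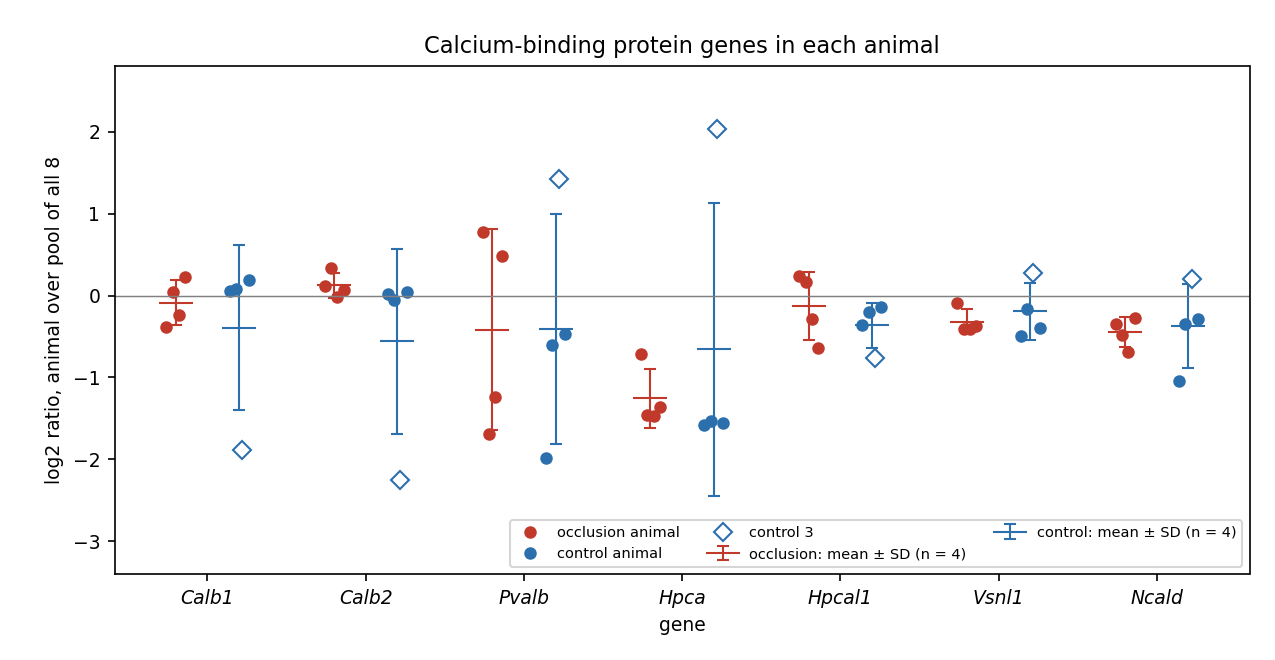
Log2 ratio of each animal over the pool of all 8 (vertical axis) for the 7 genes (horizontal axis), occlusion animals in red left of control animals in blue, with bars for the mean ± SD of 4 animals. Control 3, the open diamond, lies outside the other 7 animals for every gene, at 2.03 for Hpca and at -2.25 for Calb2.

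Among the buffers, Calb1 was read by its brightest probe. Its log2 ratios were -0.38, 0.05, -0.24 and 0.23 in occlusion animals 1 to 4, against 0.06, 0.08, -1.89 and 0.19 in controls 1 to 4. Controls 1, 2 and 4 fell inside the range of the occlusion animals, and control 3 lay far below every other animal. The means were -0.09 ± 0.27 in occlusion animals and -0.39 ± 1.002 in controls (SD, n = 4 each), a difference of 0.30 with a 95% interval from -0.68 to 1.29 (limma adjusted p = 0.974, exact permutation p = 0.8286). Without control 3 the control mean was 0.11 ± 0.07 (SD, n = 3) and the difference had the other sign, -0.20 (exact permutation p = 0.343, smallest possible 0.0286). The Cy5 signal above local background ran from 6675 to 11590 in occlusion animals and from 2816 to 12733 in controls, while the pool on the same spots stayed between 4587 and 5156.

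Calb2, which encodes calretinin, had log2 ratios of 0.12, 0.33, -0.02 and 0.06 in occlusion animals 1 to 4, against 0.01, -0.05, -2.25 and 0.05 in controls 1 to 4. Apart from control 3, all animals lay within a span of 0.38. The means were 0.12 ± 0.15 under occlusion and -0.56 ± 1.13 in controls (SD, n = 4 each), and the difference of 0.68 had a 95% interval from -0.39 to 1.76 (limma adjusted p = 0.974, exact permutation p = 0.114). Without control 3 the control mean was 0.0039 ± 0.05 (SD, n = 3) and the difference 0.12 (exact permutation p = 0.257). Of the 26981 genes, 99.1% had a smaller SD over all 8 animals and 53.9% a smaller one over the 7 without control 3. The wide spread of Calb2 thus lay in a single library.

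Pvalb, which encodes parvalbumin, varied from animal to animal in both groups. Its log2 ratios were 0.77, -1.69, -1.23 and 0.48 in occlusion animals 1 to 4, against -1.99, -0.60, 1.42 and -0.47 in controls 1 to 4. Occlusion animals 1 and 4 and control 3 lay above the pool and the other 5 animals below it, so high and low values occurred in either group. The means were -0.42 ± 1.23 under occlusion and -0.41 ± 1.40 in controls (SD, n = 4 each), with a difference of -0.01 and a 95% interval from -1.76 to 1.75 (limma adjusted p = 0.998, exact permutation p = 1). Without control 3 the difference was 0.60 (exact permutation p = 0.486). Pvalb differed from Calb1 and Calb2 in that its spread did not rest on control 3: over the other 7 animals its highest linear ratio was 6.77 times its lowest, and 99.9% of all genes had a smaller SD. In Cy5 the signal above background was 5027, 859, 539 and 3191 in occlusion animals 1 to 4, against 570, 1850, 8620 and 2185 in controls 1 to 4, while the pool gave 1362 to 1514.

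Of the sensors, Hpca (hippocalcin) showed the largest gap between control 3 and the rest of any member. Log2 ratios were -0.72, -1.46, -1.47 and -1.36 in occlusion animals 1 to 4, against -1.57, -1.53, 2.03 and -1.55 in controls 1 to 4. All animals but control 3 lay below the pool, and occlusion 1 was the next highest. The means were -1.25 ± 0.36 under occlusion and -0.66 ± 1.79 in controls (SD, n = 4 each), a difference of -0.59 with a 95% interval from -2.32 to 1.13 (limma adjusted p = 0.974, exact permutation p = 1). Without control 3 the control mean was -1.55 ± 0.02 (SD, n = 3) and the difference turned to 0.30 (exact permutation p = 0.114). The groups then did not overlap, which also held for 6.27% of all genes. The Cy5 signal above background was 2908, 1642, 906 and 1549 in occlusion animals 1 to 4, against 1451, 1596, 27792 and 1747 in controls 1 to 4, with 2194 to 3032 for the pool.

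Hpcal1, a hippocalcin-like sensor first known as VILIP-3, had log2 ratios of 0.24, 0.17, -0.28 and -0.64 in occlusion animals 1 to 4, against -0.36, -0.20, -0.76 and -0.15 in controls 1 to 4. Occlusion 1 and 2, which shared slide 1, lay above all controls. On slide 2, occlusion 3 lay among the controls, and occlusion 4 lay below controls 1, 2 and 4 and above control 3 only. The difference was 0.24 with a 95% interval from -0.25 to 0.72 (limma adjusted p = 0.974, exact permutation p = 0.371), and without control 3 it was 0.10 (exact permutation p = 0.743). Occlusion animals averaged -0.13 ± 0.41 and controls -0.37 ± 0.28 (SD, n = 4 each).

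Vsnl1 (visinin-like 1) and Ncald (neurocalcin delta) were read by a pair of probes each. The brighter Vsnl1 probe gave log2 ratios of -0.09, -0.40, -0.41 and -0.38 in occlusion animals 1 to 4, against -0.50, -0.16, 0.28 and -0.39 in controls 1 to 4. Control 3 was the single animal above the pool. On this brighter probe occlusion 1 lay above controls 1, 2 and 4, and the other occlusion animals lay between controls 1 and 2. The difference was -0.13 with a 95% interval from -0.50 to 0.25 (limma adjusted p = 0.974, exact permutation p = 0.657), and -0.16 on the second probe. Without control 3 it was 0.03 (exact permutation p = 0.743), and -0.04 on the second probe. The high position of occlusion 1 was not shared by the second probe. There it was at -0.28, above control 1 at -0.38 and below controls 2 and 4 at -0.26 and -0.24.

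The brighter Ncald probe gave -0.35, -0.48, -0.69 and -0.27 in occlusion animals 1 to 4, against -1.05, -0.35, 0.20 and -0.29 in controls 1 to 4. Control 1 was the lowest and control 3 the highest of all animals, with the occlusion animals between them. The difference was -0.08 with a 95% interval from -0.60 to 0.45 (limma adjusted p = 0.986, exact permutation p = 0.8286), and -0.16 on the second probe. Without control 3 the brighter probe differed by 0.11 (exact permutation p = 0.657) and the second by -0.09.

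Since each slide held both groups, the differences were also read within slides, which left 2 animals against 2. On slide 1, which holds control 3, the log2 differences were 0.68 for Calb1, 1.33 for Calb2, -0.93 for Pvalb, -1.32 for Hpca, 0.66 for Hpcal1, -0.19 for Vsnl1 and -0.37 for Ncald. On slide 2 they were -0.07, 0.04, 0.92, 0.14, -0.19, -0.06 and 0.22 in the same order of genes. The sign was thus opposite between slides for 5 of 7 members, all but Calb2 and Vsnl1. The one unadjusted limma p under 0.05 for a member in any slide was that of Hpcal1 on slide 1 (0.0416, adjusted p = 0.870).

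**Figure D2:**
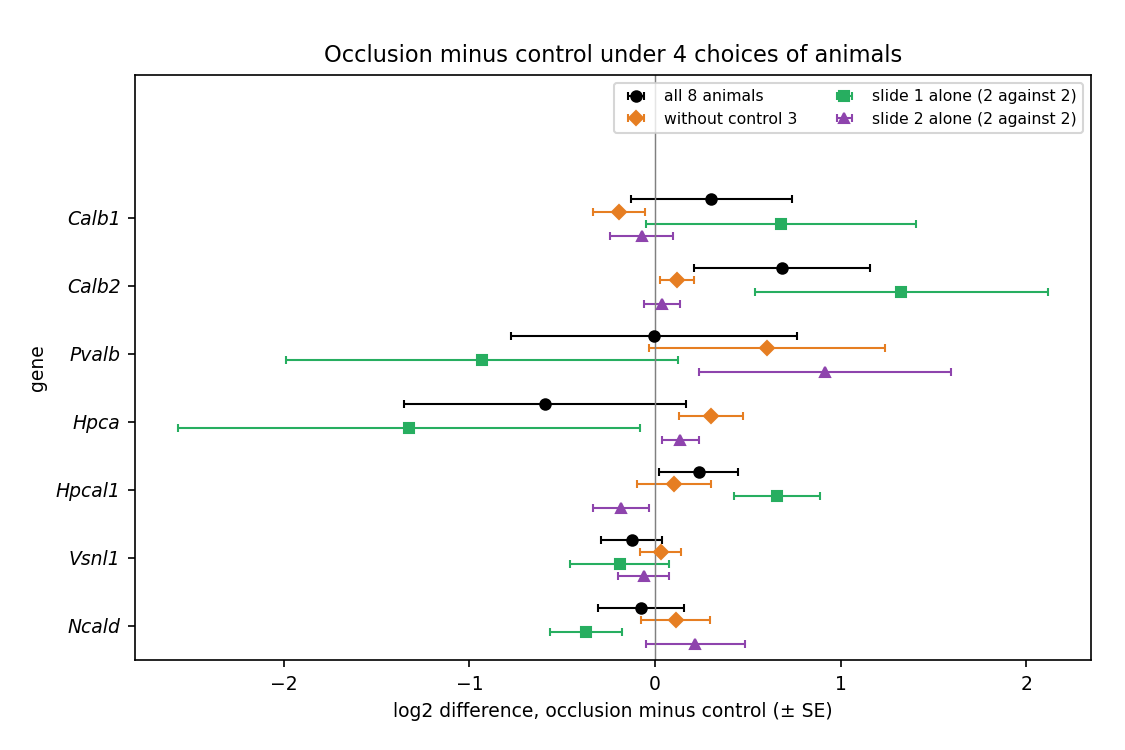
Log2 difference, occlusion minus control, with its standard error (horizontal axis), for the 7 genes (vertical axis) over all 8 animals, without control 3, and on slide 1 and slide 2 alone. Points of 1 gene lie on either side of 0 for every gene except Calb2, which stays between 0.04 and 1.33.

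Control 3 lay outside the range of the other 7 animals for 7 of 7 members. Among the 26172 genes measured on all arrays this was so for 48.7%, with 24.4% above and 24.3% below, so a position outside the range was common in this library. Each of the other animals lay outside the range for 17.8% to 28.7% of genes, and for 0 to 4 members. Both upper ends belong to control 1, which was below all others for 4 members, beside 15.5% of genes. Its array also had the lowest share of spots well above background (68.3%) and the most outlier spots (853). Pvalb, Hpca, Vsnl1 and Ncald were above the others in control 3 and Calb1, Calb2 and Hpcal1 were below, so that both buffers and sensors were found on each side. On the linear scale Hpca in control 3 was 11.3 times the median of the other 7 animals and Pvalb 4.06 times, whereas for Calb2 that median was 4.93 times control 3 and for Calb1 3.86 times.

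Because the pool held RNA of all 8 animals, 1 animal could carry much of a gene's pooled signal. Control 3 gave 59.8% of the summed linear ratios of Hpca and 32.8% of those of Pvalb, but 2.76% for Calb2 and 3.68% for Calb1. These are shares of the pooled signal only if each animal gave the same amount of RNA to the pool, which is not stated. The other 7 animals had Hpca ratios between 0.34 and 0.61 of the pool. The pool was the same on every array. Its signal also enters the background correction and the loess step, and how far its makeup affects differences between animals was not tested. The mean linear ratio over all 8 animals was between 0.77 and 1.02 for the 7 genes. Across arrays the pool signal varied by at most 1.43 times for any of the 12 probes, and the animal signal by 1.61 to 30.7 times.

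The 4 Calb1 probes fell into an upstream and a downstream pair that behaved differently between animals. By the rn3 coordinates of the array design they lie on the plus strand of chromosome 5. The upstream pair is A_44_P236255 at chr5:30475783-30475991 and A_44_P118630, the brightest, at chr5:30479753-30479812. The downstream pair is A_44_P621980 at chr5:30480258-30480317 and A_44_P118625 at chr5:30480350-30480409, whose starts are 92 bases apart. The second probe starts 3970 bases after the first, and the third 505 bases after the second. Exons and untranslated regions on that build were not used here.

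Averaged over the pair, the upstream probes gave -0.37, 0.01, -0.26 and 0.23 in occlusion animals 1 to 4, against 0.08, 0.12, -1.71 and 0.13 in controls 1 to 4. The downstream probes gave -0.09, -0.06, 0.66 and 0.10 in occlusion animals 1 to 4, against 0.35, -0.07, -0.31 and -0.07 in controls 1 to 4. The low value of control 3 was thus far deeper on the upstream pair, and occlusion 3 and control 1 were the highest animals on the downstream pair only. Over the 7 animals without control 3, r was 0.94 within the upstream pair (exact permutation p = 0.0046, adjusted over 8 probe pairs 0.018; rho = 0.89) and 0.996 within the downstream pair (exact permutation p = 0.0036, adjusted 0.018; rho = 0.71). By rho 0 of the 8 probe pairs passed in these 7 animals, with adjusted exact permutation p = 0.0984 upstream and 0.176 downstream. Across the pairs r lay between -0.28 and -0.23 (lowest adjusted exact permutation p = 0.679). Without the animals farthest from the median, a pair of them in each case, r was 0.54 upstream and 0.93 downstream, so the upstream relation rests in part on those animals.

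The 10 spots of A_44_P621980 had an SD between 0.02 and 0.10 within an array, with a median of 0.06. The other 3 Calb1 probes have 1 spot each, so their spot noise could not be measured. Occlusion minus control was 0.19 and 0.30 on the upstream probes and 0.20 and 0.16 on the downstream probes, and 0 of the 4 passed in limma over all probes (adjusted p between 0.977 and 0.980). The upstream differences had the other sign without control 3, -0.22 and -0.20, and the downstream ones were 0.10 and 0.06 (exact permutation p between 0.257 and 0.8286). The downstream probes also ran beside the choroid plexus gene Ttr, which was at 2.28 in occlusion 3 and between -2.79 and -1.76 in all other animals. As 1 animal sets that relation, no pooled r is given. Choroid plexus was not the only class to stand out in occlusion 3. Without control 3 that animal was also the highest for the cortex projection neuron markers (-0.23) and the meningeal and fibroblast markers (0.07). It was the lowest for the general neuron markers (-0.25). The upstream probes, which include the one that stands for the gene, were not high in occlusion 3, at -0.28 and -0.24. The 8 tested choroid plexus and ependyma markers averaged between -0.52 and 0.55 in occlusion animals, against -1.35 to -0.35 in controls. All 8 had the higher mean under occlusion, also without control 3, and 4 of 8 had an unadjusted limma p under 0.05, beside 3.12% of all genes, while 0 passed after adjustment. These 8 genes were read in the same animals as markers of the same cell classes, so they are not independent. Their median log2 difference was 0.60, and 0.36 without control 3. Kl, a further marker of the list, was well above background on 1 array, and the part of these markers in the Calb1 values was not tested.

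**Figure D3:**
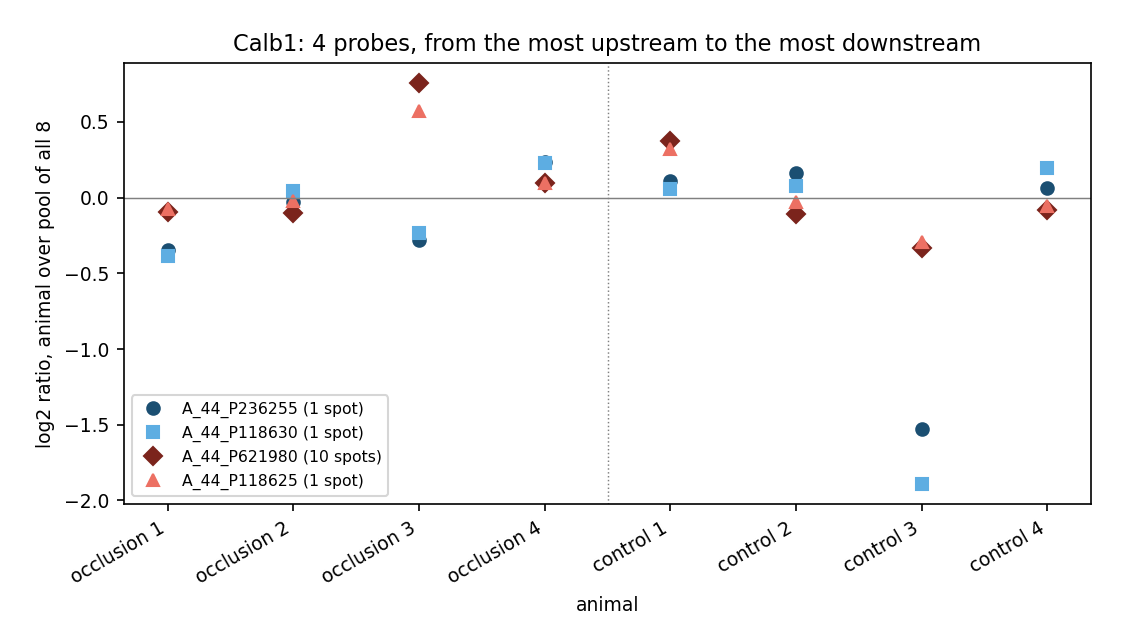
Log2 ratio over the pool (vertical axis) of the 4 Calb1 probes in each animal (horizontal axis), occlusion animals left of the dotted line and controls right of it, with blue for the upstream pair and red for the downstream pair. In control 3 the upstream probes sit at -1.53 and -1.89 and the downstream probes at -0.33 and -0.29.

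The other 6 genes were read at the following places on rn3. Calb2 was read at chr19:40028075-40028135, Pvalb at chr7:116148929-116148988 and Hpca at chr5:148278232-148278293, all on the minus strand, and Hpcal1 at chr6:41579165-41579224 on the plus strand. The Vsnl1 probes lie at chr6:34773184-34773243 and chr6:34774157-34774216 and the Ncald probes at chr7:72897082-72897141 and chr7:72902514-72902573, all on the minus strand. All 12 probes were well above background in both dyes on 8 of 8 arrays, 0 spots were saturated, and 1 outlier spot was left out, of A_44_P621980. Over 8 animals the Vsnl1 probes correlated at r = 0.89 (rho = 0.81, exact permutation p = 0.011 for r, adjusted 0.030) and the Ncald probes at r = 0.79 (rho = 0.86, exact permutation p = 0.015, adjusted 0.030). Without control 3 these were 0.53 and 0.65 (adjusted exact permutation p = 0.400 and 0.292), so both relations rest in part on that animal.

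Pvalb followed the markers of inhibitory neurons. Across the 8 animals its ratio correlated with the mean of 9 tested reticular and inhibitory neuron markers at r = 0.96 (exact permutation p = 0.00025) and rho = 0.95 (exact permutation p = 0.0011). Adjusted over the 91 relations between 7 members and 13 marker lists the p for r was 0.023 and that for rho 0.104. This was 1 of 91 by r and 0 of 91 by rho past an adjusted p of 0.05. Without the animals farthest from the median of the markers r was 0.94, and without control 3 it was 0.94 (rho = 0.93, exact permutation p for r = 0.0020, adjusted 0.181). The list averaged 0.28, -0.46, -0.34 and 0.32 in occlusion animals 1 to 4, against -0.69, -0.42, 0.76 and -0.25 in controls 1 to 4, so the same 3 animals lay above the pool as for Pvalb.

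Single genes of that list also ran with Pvalb. They are not independent of its mean and were taken from the list whose relation had passed in these same animals. Their r is therefore given as a description, without a test. With Gad1, which makes the transmitter GABA, r was 0.95 over 8 animals and 0.93 over 7. With its partner enzyme Gad2 it was 0.92 and 0.92, and with the vesicular GABA transporter Slc32a1 0.92 and 0.91. Gad1 was at 1.01, -1.01, -0.50 and 0.41 in occlusion animals 1 to 4, against -1.53, -0.83, 1.59 and -0.68 in controls 1 to 4. Lhx6, a marker of cortical interneurons in the list, was not well above background on any array. The part of inhibitory neuron content in the Pvalb values was not tested, and each slide holds too few animals for a correlation of its own.

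The other members did not have a relation with a marker list that passed. Without control 3, 0 of 91 relations had an adjusted exact permutation p under 0.05, by r or by rho. Calb1, by its brightest probe, ran with the thalamic relay markers at r = 0.84 over those 7 animals (rho = 0.82, exact permutation p for r = 0.015, adjusted 0.430), and at 0.68 without the farthest animals. Over the same 7 animals r was 0.78 on the other upstream Calb1 probe. On the downstream probes it was 0.12 and 0.17, so the relation was one of the upstream pair. For Hpca and the relay markers r was -0.92 (rho = -0.57, exact permutation p = 0.065, adjusted 0.490) and 0.11 without the farthest animals, among them occlusion 1, so it rests on those. Hpca had no such relation with the cortex markers over the 7 animals (r = 0.01, exact permutation p = 0.968), although control 3 was the highest animal for both. Vsnl1 and the oligodendrocyte markers had r = 0.91 and rho = 0.96 over 7 animals (exact permutation p for r = 0.0050, adjusted 0.226), 0.34 without the farthest animals, and 0.07 with control 3 included. With the second Vsnl1 probe r was 0.56 over those 7 animals.

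**Figure D4:**
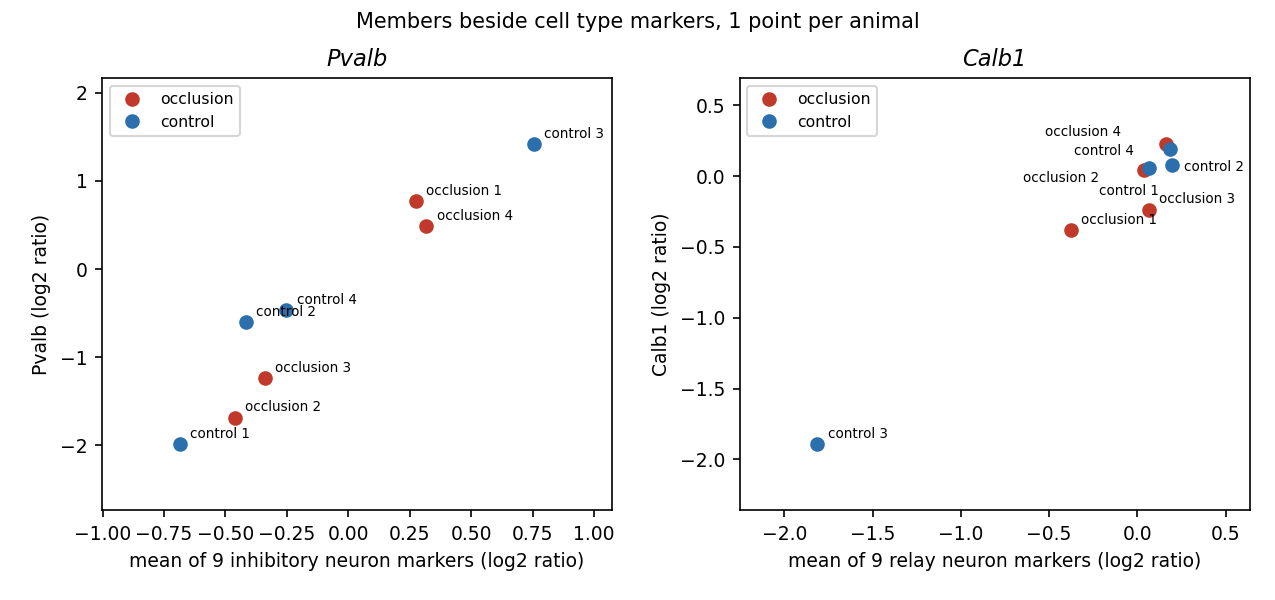
Log2 ratio over the pool of Pvalb against the mean of 9 inhibitory neuron markers (left) and of Calb1, by its brightest probe, against the mean of 9 relay neuron markers (right), 1 point for each of the 4 occlusion animals (red) and 4 controls (blue). Pvalb spreads along its markers from control 1 at -1.99 up to control 3 at 1.42, whereas for Calb1 the animals lie close together apart from control 3 at -1.89.

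Among the members themselves, 21 pairs were compared. Leaving out control 3 changed the sign of r in 9 of them, and the number of pairs with r over 0.9 in size was 0 without control 3, against 4 with it. In the 7 animals the highest r was 0.75, between Pvalb and Ncald (rho = 0.75, exact permutation p for r = 0.043, adjusted over 21 pairs 0.382), and 0.72 without the farthest animals. The lowest was -0.71, between Calb1 and Hpca (rho = -0.32, exact permutation p = 0.076, adjusted 0.382), and it had the other sign, 0.47, without the farthest animals. None of the 21 had an adjusted exact permutation p under 0.05 in those 7 animals. With all 8 animals 8 of 21 passed by r and 0 of 21 by rho.

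For each member the named genes with the most similar pattern, up to 3, were found among 13068 genes, likeness being the smaller of r over 8 animals and r over the 7 without control 3. These values share the same arrays and the same pool and are given as a description. For Calb1 they were Prkag3 (0.96), the relay marker Rora (0.95), a nuclear receptor gene, and Nell1 (0.94). For Calb2 they were Tekt3 (0.88), Lipe (0.88) and Sirt4 (0.88), and for Pvalb Lix1 (0.98), the vascular growth factor gene Vegfa (0.95) and the somatostatin receptor gene Sstr3 (0.94). For Hpca they were the somatostatin receptor gene Sstr1 (0.96) and Dusp13b (0.95), and for Hpcal1 the splicing kinase gene Clk2 (0.96), Pdss2 (0.94) and Zwint (0.93). For Vsnl1 they were Csrnp3 (0.98), the potassium channel gene Kcnj11 (0.95) and Gypc (0.95), and for Ncald Pomgnt1 (0.95), Trim35 (0.95) and Adgrb3 (0.95). The number of genes over 0.9 was 21 for Calb1, 0 for Calb2, 13 for Pvalb, 11 for Hpca, 16 for Hpcal1, 7 for Vsnl1 and 16 for Ncald.

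Of 44 further calcium-binding protein genes, 42 had a probe and 38 were tested. Under occlusion 17 were higher and 21 lower, beside 50.2% of all genes higher, and the median log2 difference was -0.03. Without control 3, 18 were higher, beside 49.7% of all genes, and the median was -0.0077. None passed (0 of 38 in limma), and 1 of 38 had an unadjusted p under 0.05, beside 3.12% of all genes. This was Kcnip1, which encodes a calcium sensor bound to A-type potassium channels, with 0.25, 0.37, 0.18 and -0.05 in occlusion animals 1 to 4, against 0.10, -0.30, -0.80 and -0.40 in controls 1 to 4. Control 1 lay among the occlusion animals. Its difference was 0.54 with a 95% interval from 0.14 to 0.94 (unadjusted limma p = 0.0146, adjusted p = 0.974, exact permutation p = 0.0571). Without control 3 it was 0.39 (exact permutation p = 0.0857).

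The nearest in p after Kcnip1 were Efhd2 with a log2 difference of -0.26, Cib1 with 0.16, Guca1b with 0.10, S100a1 with -0.12 and S100a13 with 0.15. All had an adjusted limma p of 0.974. The differences of Efhd2, Cib1 and S100a13 were smaller without control 3, at -0.14, 0.08 and 0.05, that of Guca1b was 0.09 and that of S100a1 was -0.19. Without that animal the groups did not overlap for S100a1 (exact permutation p = 0.0286, the smallest possible). The same held for Kcnip3, with a difference of 0.27 (exact permutation p = 0.0286), and for 6.27% of all genes. Hpcal4, a sensor close to hippocalcin, was between -0.28 and -0.19 in occlusion animals, against -0.42 to 1.07 in controls, the highest being control 3. Without it the controls ended at -0.25, inside the occlusion range, and the difference was 0.10, against -0.25 with it. Ncs1, the neuronal calcium sensor that gave the family its name, differed by -0.01, by -0.0042 without control 3, and was at -0.01 in that animal.

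By family, 4 of 8 tested neuronal calcium sensors, 0 of 3 CaBP genes, 0 of 2 buffers, 2 of 6 S100 genes, 3 of 3 NECAB genes and 8 of 13 further EF-hand genes had the higher mean under occlusion. Without control 3 these counts were 6 of 8, 3 of 3, 1 of 2, 2 of 6, 0 of 3 and 6 of 13 in the same order, so the signs of the CaBP and NECAB genes rest on that animal. Over all genes the share with the higher mean was 50.2%, and 49.7% without control 3. Calm2 and S100a10 were measured in 3 of the 4 occlusion animals. Control 3 was outside the range of the other animals for 27 of the 36 genes measured on all arrays, 13 above and 14 below, beside 48.7% of all genes. The CaBP genes Caln1, Cabp1 and Cabp7 were at 1.78, 1.33 and 1.20 there. Rcvrn and Cabp5 were not well above background on any array, and Cabp4 and S100g were so on 1 array.

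**Figure D5:**
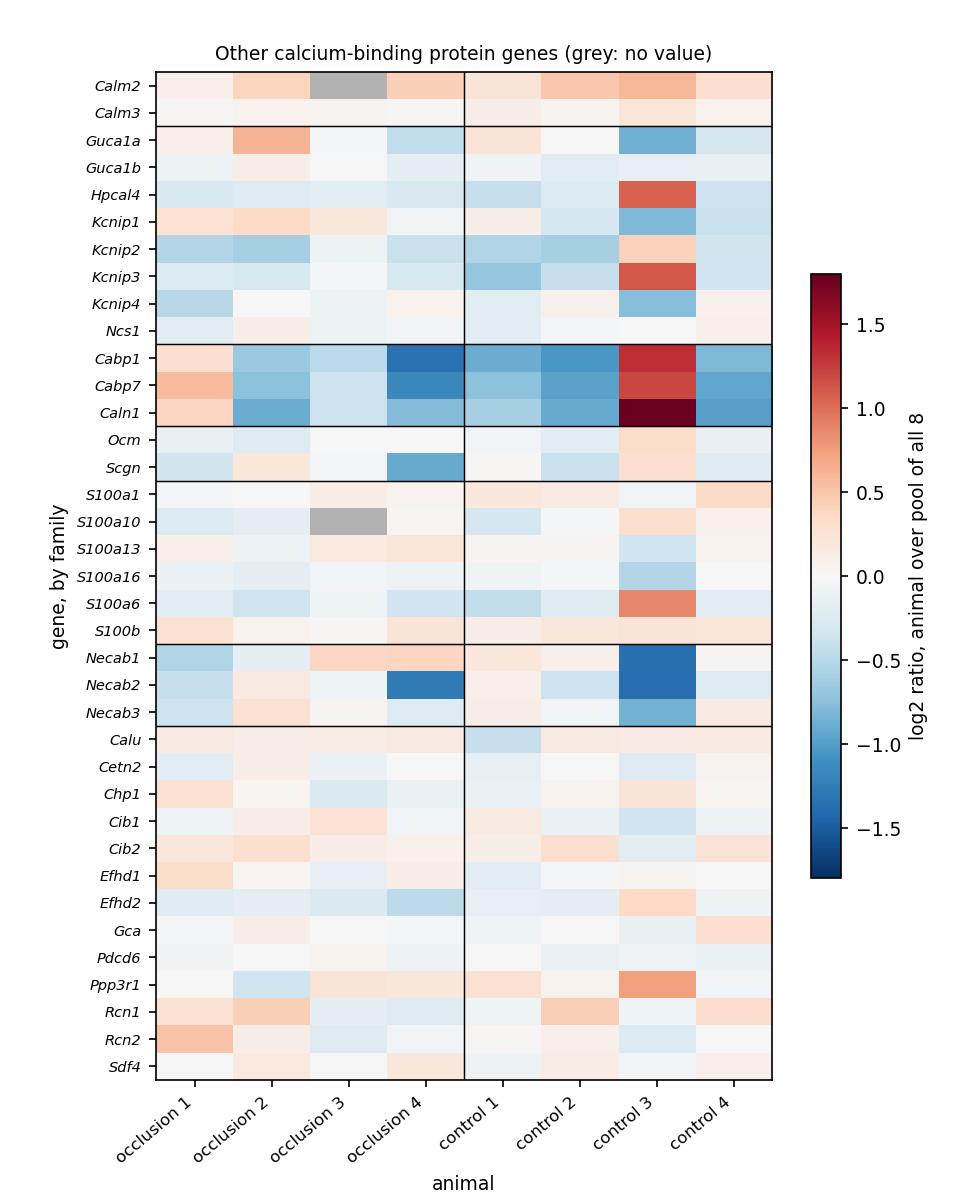
Log2 ratio over the pool (colour scale, red above and blue below the pool, grey where no value was measured) of tested further calcium-binding protein genes, grouped by family (vertical axis), in 4 occlusion animals left of 4 controls (horizontal axis). Control 3 is the most deeply coloured column, with Caln1 at 1.78 and Necab1 and Necab2 at -1.36 and -1.37.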

How the data were processed

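Medial thalamus RNA of 8 rats was hybridised to Agilent 2-colour arrays, with the animal in Cy5 and the pool in Cy3. The deposited scanner files, made by the authors with Agilent Feature Extraction 9.5.1.1 per the file headers, give spot intensity on a linear scale, flags of 0 or 1 per spot, and a log10 ratio of Cy5 over Cy3. The deposited series table holds the same log10 ratios: all 45018 spots of every array matched within 1%, which settles its scale and direction, and each column has a median of 0. Between 7346 and 9980 values per column were exactly 0, so the centring of those ratios stays unknown.

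From the intensities, normexp background correction (offset 50) and loess within arrays were run, giving no weight to control spots and outliers. Outliers were then dropped and replicate spots averaged. A probe was kept if 4 or more of the 8 arrays had it well above background in Cy5 and each group had 2 or more values, and the probe of highest mean intensity stood for its gene. Names came from the array design and a RefSeq table of GRCr8. Groups were compared in limma 3.58.1 (lmFit, eBayes, R 4.3.3), adjusting p-values by Benjamini-Hochberg across the 26981 genes at 0.05, and for each member by a two-sided exact permutation test over 70 assignments. The fit was tested on simulated data. Relations across animals used Pearson r and Spearman rho with two-sided exact permutation p over all pairings, adjusted within each family, and were set up after the values had been seen. The number of arrays limits precision.

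The members and lists were chosen with earlier results of these data known. Genes named are all members with every probe, the 6 further calcium-binding genes of smallest unadjusted p with Hpcal4 and Ncs1, the 3 genes most like each member, and the first 3 genes of each marker list where they bear on a member. Caln1, Cabp1, Cabp7, Kcnip3, Calm2, S100a10, Necab1, Necab2, Lhx6, Kl, Rcvrn, Cabp4, Cabp5 and S100g were named after their values were seen. Some genes that this rule names are not reported here. The 22 alternatives changed background correction, normalization, deposited ratios, Cy5 alone, dim-probe filter, probe averaging, array weights, slide, replicate number and single animals. Figures were drawn with matplotlib 3.10.9.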

Additional observations from a re-analysis of the deposited data

Results flagged for a closer look

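Within a group of 4, an animal is given here where its gap to the nearest other animal, as a share of the group's range, passed Dixon's 95% critical value. Of 50 checks on members, probes and marker lists 10 met this, where chance meets it in about 1 in 20 groups. In control 3 this held for Calb1 at a log2 ratio of -1.89, for the upstream Calb1 probe A_44_P236255 at -1.53, for Calb2 at -2.25 and for Hpca at 2.03. It also held there for the mean of the thalamic relay markers at -1.81, of the cortex projection neuron markers at 1.33 and of the meningeal and fibroblast markers at 0.91. Among occlusion animals it held for Hpca in occlusion 1 at -0.72, for Vsnl1 in occlusion 1 at -0.093, on the brighter probe only, and for the cortex projection neuron markers in occlusion 3 at -0.23. Occlusion 1 and occlusion 3 were the highest of their group in these measures.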

How the results depend on the processing

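For the 7 members the adjusted limma p stayed above 0.05 under all 22 alternatives, the smallest being 0.859, and 0 members and 0 further calcium-binding genes passed under any of them. Over all genes 1 passed without control 3 and 0 otherwise, and the number at an unadjusted p under 0.05 was 842, against 282 after median centring, 1360 with array weights, 489 without occlusion 1 and 1440 without control 1. Calb2 kept its sign throughout. The sign turned under array weights for Calb1 (-0.085), Pvalb (0.029) and Hpca (0.019), after median centring for Pvalb (0.044), and on slide 2 alone for Calb1 (-0.072), Pvalb (0.92), Hpca (0.14), Hpcal1 (-0.19) and Ncald (0.22). Leaving out 1 animal at a time gave log2 differences from -0.20 to 0.50 for Calb1, 0.12 to 0.89 for Calb2, -0.53 to 0.60 for Pvalb, -0.90 to 0.30 for Hpca, 0.10 to 0.41 for Hpcal1, -0.23 to 0.031 for Vsnl1 and -0.30 to 0.11 for Ncald. The turn in sign of Calb1, Hpca and Vsnl1 came without control 3, that of Ncald without control 3 or occlusion 3, and that of Pvalb without control 3, occlusion 2 or occlusion 3. The median over the members ran from -0.23 to 0.27, the highest without occlusion 3, and counts of genes that passed from 0 to 1. In each case the cause was not tested. With the replicate block the differences were those given above (0.30 for Calb1, 0.68 for Calb2, -0.01 for Pvalb, -0.59 for Hpca, 0.24 for Hpcal1, -0.13 for Vsnl1 and -0.08 for Ncald, median -0.0069), 0 genes passed and 811 had an unadjusted p under 0.05. The deviations of same-numbered animals had correlations of -0.13, 0.14, 0.03 and 0.08. Same-numbered animals lay on different slides, so these values cannot show whether they were handled together. With 4 animals per group the 95% intervals of Calb1, Calb2, Pvalb and Hpca extend past 1 log2 unit, so differences of that size lie inside them. Much of this width rests on control 3 for Calb1, Calb2 and Hpca. Without it the limma standard error fell from 0.43 to 0.14, 0.47 to 0.09 and 0.76 to 0.17 in these genes. For Pvalb it went from 0.77 to 0.64. The pool carries control 3 too, and dye effects were not balanced by swaps.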

Other observations

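Several lists of cell class markers leaned to one group, and 0 of their genes passed in limma after adjustment. Over all genes 50.2% had the higher mean under occlusion, and 49.7% without control 3. The thalamic relay markers had the higher mean under occlusion for 9 of 9 genes, and for 2 of 9 without control 3. The hypothalamus markers did so for 8 of 9, and for 7 of 9 without control 3, and the oligodendrocyte markers for 6 of 6 and 4 of 6. For the habenula markers it was 6 of 8, and 1 of 8 without control 3. Other lists leaned to control. The cortex projection neuron markers were higher under occlusion for 2 of 11 genes, and for 9 of 11 without control 3. For the meningeal and fibroblast markers it was 1 of 8, and 5 of 8 without control 3. The habenula markers averaged -0.06, 0.44, 0.20 and -0.98 in occlusion animals 1 to 4, against 0.29, -0.08, -1.38 and -0.01 in controls 1 to 4, so occlusion 4 and control 3 were low. Slc5a7, the choline transporter gene of cholinergic habenula neurons, was at -1.98 in occlusion 4 and -3.51 in control 3. Pmch, which encodes melanin-concentrating hormone of the lateral hypothalamus, was at 1.26, -0.67, -2.75 and 1.20 in occlusion animals 1 to 4, against -3.48, -1.52, -3.90 and 1.09 in controls 1 to 4. Occlusion 1, occlusion 4 and control 4 were thus high, and the groups overlapped. Avp, the vasopressin gene, was at 1.40 in occlusion 4 and between -0.46 and -0.07 in all other animals. Pvalb ran against the habenula markers at r = -0.85 over 8 animals (rho = -0.86, exact permutation p for r = 0.0034, adjusted over 91 relations 0.078) and at -0.75 without control 3 (adjusted 0.430).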
